A study of Fukomys damarensis and Heterocephalus glaber and Cavia porcellus with 28 samples.

Results

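Livers of the naked mole-rat and the guinea pig were compared gene by gene, as part of a study that profiled heart and liver of 4 rodent species by RNA sequencing. All genes of the liver table were considered, and a gene was kept where its mean over the 7 libraries of these species was at least 1 above the lowest value of the table, which is the value of a gene with 0 reads. This kept 10807 of 13928 genes and left out 3121. The genes nearest the limit inside it were Morn5, Lgi3 and Ky, with means from 5.2893 to 5.2896 against a limit of 5.29, and those nearest outside it were Btbd19, Ccdc17 and Panx3, with means from 5.2876 to 5.2885.

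The naked mole-rat group held livers of 4 males aged 13 to 17 months, and the guinea pig group livers of 3 males aged 2.3 months. Each library came from a different animal. The labels name no treatment, strain or genotype. Frozen tissue was homogenised, and total RNA was sequenced after depletion of ribosomal RNA. Livers of 5 Damaraland mole-rats aged 36 to 48 months, which included a female, and of 2 male mice aged 2 months were in the same table, and their levels are given beside the comparison where they help to place it. Species, age and anything else that differed between the colonies cannot be told apart in this design. Bulk tissue was sequenced, so fewer cells of a type and less RNA per cell cannot be told apart either.

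The liver makes most plasma proteins, clears amino nitrogen as urea, stores glycogen, exports lipid in lipoproteins and turns cholesterol into bile acids. Naked mole-rats and guinea pigs belong to the same branch of rodents, the hystricomorphs. Naked mole-rats are known for a long life, low body temperature and tolerance of low oxygen, while guinea pigs are known for a dietary need for vitamin C and for plasma that carries very little high-density lipoprotein.

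Levels are deposited log2-like values, on which a step of 1 approaches a 2-fold change for abundant genes. The step is smaller for rare genes: a 2-fold change moved the value by 0.392 from 10 scaled reads, by 0.801 from 100 and by 0.973 from 1000. Scaled reads are reads recovered from the values and divided by the size factor of the library. They are not divided by gene length, so levels of different genes are not compared. A difference is the naked mole-rat mean minus the guinea pig mean, its standard error (SE) takes in the spread of all 14 livers around their species means, and a gene was called at a limma adjusted p under 0.05 with a difference of at least 1 in either direction. How genes were matched between species is not given in the sources used here, and differences in length or annotation of a gene between the species are part of each difference.

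Recovered reads per library ran from 12359041 to 20686892 in naked mole-rat liver and from 13945522 to 21467939 in guinea pig liver. Alb, which encodes serum albumin and marks hepatocytes, had the highest value of all genes in each of the 7 libraries. Rank correlations across genes, which are not independent replicates, were 0.956 or more between libraries of the same species and 0.675 to 0.708 between the species. The lowest of the former was between guinea pig replicates 1 and 2.

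Of the 10807 genes, 4177 were called (38.7%), 2148 of them higher in the naked mole-rat (19.9% of all tested) and 2029 lower (18.8%). The median difference over all genes was 0.02 and the median absolute difference was 0.76. Every naked mole-rat library lay on the same side of every guinea pig library for 7037 genes (65.1%), above in 33.2% and below in 32.0%. Among the 158 genes with a mean above 10000 scaled reads, 49 were called higher and 23 lower, while among the 6277 genes between 100 and 1000 scaled reads the counts were 1194 and 1256. A difference of at least 4 was reached by 234 called genes, 125 of them higher in the naked mole-rat.

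The limit on low values was set on the mean of both species, so 540 genes passed through the naked mole-rat mean alone and 455 through the guinea pig mean alone. The limit fixed the direction of such genes, and their differences went down to 0.11 and -0.02. Of them, 77.4% and 77.6% were called, against 34.7% of the 9812 genes whose means passed in both species. Their values below are a description, with no SE or p. Among the called genes named here, Apoc4, Aqp3, Aqp7, Dnaja1, Egln3, Fads2, Kcnj10, Klf1, Me1, Pdcd1, Serpina7, Slc2a5, Slc6a11, Snrpd2, Soat2, Sult1c2, Tnfaip6, Tyms and Umod passed through the naked mole-rat alone, and Aqp5, Cd3e, Cdc37l1, Cldn4, Cyp2f2, Cyp2s1, Fbp2, Hk3, Hsp90aa1, Krt7, Mdm2, Ndufa4, Ndufab1, Rab18, Rdx, Rpl4, Rpl8, Rps13, Slc1a2, Slc22a2 and Star through the guinea pig alone. List counts below include such genes, and a count is given again where requiring both species to pass moved it by more than 1.5 times.

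**Figure D1:**
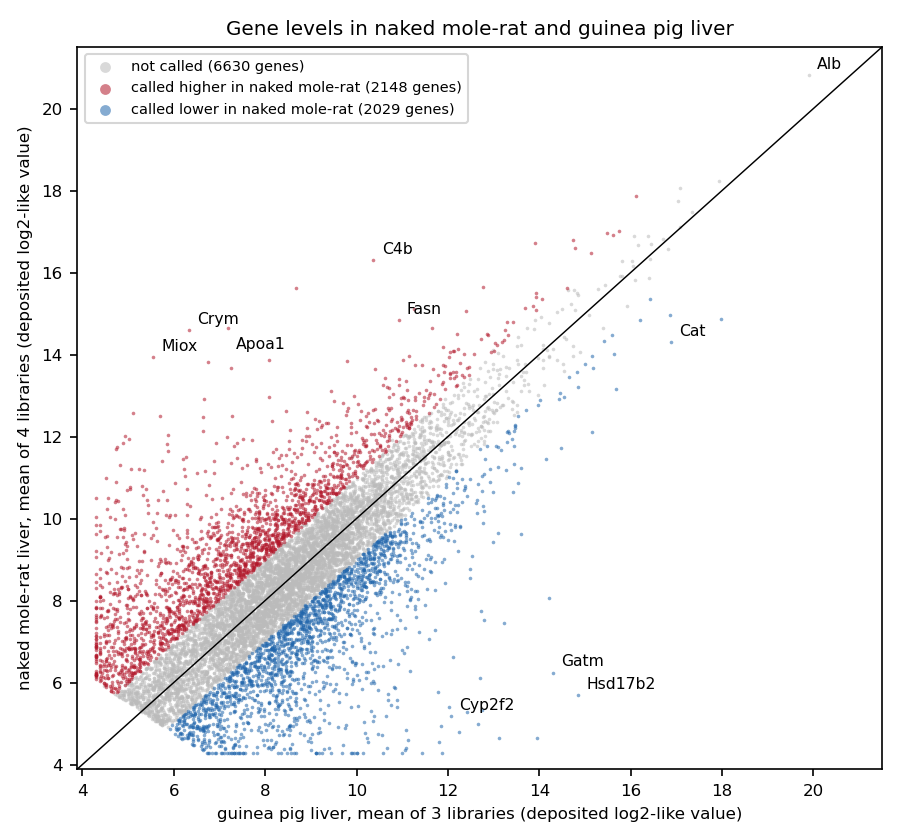
Mean deposited log2-like value of each of the 10807 genes in guinea pig liver (horizontal axis, 3 libraries) and naked mole-rat liver (vertical axis, 4 libraries), with equality as a line. Red points are the 2148 genes called higher in the naked mole-rat and blue points the 2029 called lower. Alb lies at the top near the line, and Miox and Hsd17b2 are far from it on opposite sides.

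The largest positive differences between genes present in both species were led by Miox, the inositol oxygenase that opens the breakdown of myo-inositol. Its values were 13.99, 14.70, 13.43 and 13.66 in the naked mole-rat livers and 5.004, 5.71 and 5.92 in the guinea pig livers, a difference of 8.40 (SE 0.27, adjusted p = 6.22e-14). The Damaraland mole-rat mean was 5.55 and the mouse mean 4.66, and the naked mole-rat livers lay far above all 3 other groups of livers. Crym, a crystallin-family protein that binds thyroid hormone in the cytosol, read 14.48, 14.41, 14.61 and 14.87 in naked mole-rats against 6.36, 6.29 and 6.36 in guinea pigs (difference 8.26, SE 0.18, adjusted p = 1.31e-15).

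Other genes of that group serve varied roles. Dao, the oxidase of D-amino acids, was at 13.54, 13.54, 13.79 and 13.84 in naked mole-rats and at 7.27, 7.53 and 6.94 in guinea pigs, with a difference of 6.43 (SE 0.20). Slc6a9, a glycine transporter, differed by 6.80, and Acss2, which makes acetyl-CoA from acetate, by 6.26. Mgam, a glucosidase known from the intestinal brush border, differed by 6.16 and Hnmt, which inactivates histamine, by 5.96. Car3, a carbonic anhydrase, averaged 15.63 in naked mole-rats and 8.68 in guinea pigs, while Damaraland mole-rats averaged 5.95 and mice 15.57. Ahnak, a very large scaffold protein, differed by 7.06 in liver and by 6.97 in heart. The naked mole-rat libraries lay above the guinea pig libraries for all of these genes, as the rule that picked them required.

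The largest negative difference of this kind was at Hsd17b2, which oxidises estradiol and testosterone to weaker steroids. It read 6.34, 5.72, 5.31 and 5.38 in naked mole-rats and 14.80, 14.76 and 14.998 in guinea pigs (difference -9.17, SE 0.21, adjusted p = 3.59e-15), with 13.24 in Damaraland mole-rats and 11.72 in mice. The naked mole-rat mean was the lowest of the 4 species. Gatm, the enzyme that opens creatine synthesis, was high in the guinea pig: it read 14.62, 13.75 and 14.53 in guinea pigs, 7.02, 6.37, 5.62 and 5.95 in naked mole-rats (difference -8.06, SE 0.31), and averaged 8.23 in Damaraland mole-rats and 7.66 in mice. Gamt, which completes creatine synthesis, did not pass the test, with means of 11.50 and 11.81 (difference -0.31, adjusted p = 0.266).

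Slc26a4, an anion exchanger, differed by -7.40, and was likewise low in Damaraland mole-rats (5.19) and mice (5.03). Pon3, a lactonase carried on lipoproteins, differed by -6.14 and Slc6a13, a transporter of GABA and taurine, by -6.01. Psen2, a catalytic subunit of gamma-secretase, differed by -5.79, Tmem86b, a lysoplasmalogenase, by -5.49, and C1qtnf3, a secreted C1q-family protein, by -5.48. Epn1, an endocytic adaptor, and Macf1, which links microtubules to actin, differed by -6.64 and -6.58 in liver and by -4.83 and -5.75 in heart. The libraries of the species did not overlap at any of them, again a condition of the rule that picked them, and met by 65.1% of all genes.

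Some kept genes had no reads in all livers of a species. 47 genes had 0 reads in all 4 naked mole-rat livers, and 25 of these also had 0 reads in all 3 naked mole-rat hearts. 54 genes had 0 reads in all 3 guinea pig livers, 19 of them also in all 3 guinea pig hearts. Genes that cells in general use are among them, and such genes count among the called genes, but no fold change is given for a gene listed at 0. Whether a listing at 0 comes with the matching of genes between species was not tested. Ndufa4, a respiratory chain protein, was listed at 0 in the naked mole-rat livers and read 11.62, 11.65 and 12.32 in the guinea pig livers. Rpl8, a ribosomal protein, was listed at 0 in the naked mole-rat livers and read 11.83, 11.03 and 11.47 in guinea pigs. Rdx, Rab18 and Cdc37l1 were listed at 0 in the same libraries, with guinea pig means of 10.998, 10.57 and 10.15. Ndufa4 and Cdc37l1 also had 0 reads in every naked mole-rat heart, and Rpl8, Rdx and Rab18 had at most 2 reads in any of them.

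In the other direction, Pdcd1, an inhibitory receptor known from T cells, was listed at 0 in the guinea pig livers and read 10.45, 10.41, 10.22 and 10.91 in the naked mole-rat livers. Soat2, which esterifies cholesterol, read 9.74, 9.98, 10.10 and 10.35 in naked mole-rats and was listed at 0 in guinea pigs, with means of 8.10 in Damaraland mole-rats and 8.95 in mice. Umod, a protein known from kidney, Snrpd2, a core spliceosome protein, and Aqp7, a glycerol channel, were listed at 0 in guinea pigs with naked mole-rat means of 9.84, 9.61 and 9.20.

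Fatty acid synthesis joins acetyl-CoA units into palmitate, which elongases and desaturases then turn into longer and unsaturated chains. Of 19 tested genes of fatty acid and triglyceride synthesis, 12 were called higher in the naked mole-rat and 2 lower (73.7% called, against 38.7% of all genes), and their median difference was 2.22, against 0.02 over all genes. Fasn, the fatty acid synthase, read 13.92, 15.25, 14.79 and 15.41 in naked mole-rats and 10.94, 11.996 and 9.82 in guinea pigs, so that the lowest naked mole-rat liver lay above the highest guinea pig liver (difference 3.93, SE 0.43, adjusted p = 3.88e-07). The acetyl-CoA carboxylases, which make the malonyl-CoA that the synthase uses, were both higher: Acaca by 2.89 (SE 0.27) and Acacb by 5.24 (SE 0.33). Me1, a source of NADPH for the synthase, read 9.47, 9.95, 9.72 and 9.44 against 5.14, 5.21 and 5.08.

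The desaturases Fads2 and Fads1 and the elongase Elovl5, which together make polyunsaturated fatty acids, were called higher. Fads2, the delta-6 desaturase, read 10.69, 12.31, 10.41 and 11.40 in naked mole-rats and 5.22, 5.34 and 5.17 in guinea pigs (difference 5.96). Fads1, the delta-5 desaturase, read 10.44, 11.62, 10.70 and 11.44 against 6.46, 6.07 and 6.18, and Elovl5, the elongase that acts between them, 12.04, 12.48, 13.17 and 12.36 against 7.49, 7.10 and 7.25. All 3 were far above the guinea pig level in Damaraland mole-rats (9.78, 8.56 and 10.26 for Fads2, Fads1 and Elovl5) and in mice (13.15, 12.62 and 12.49), so the guinea pig had the lowest mean of the 4 species for each. Acacb was different, with a Damaraland mole-rat mean of 5.90 beside the guinea pig mean of 6.21 and a mouse mean of 11.98.

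Thrsp, a nuclear protein that promotes lipid synthesis and responds to thyroid hormone and carbohydrate, read 11.09, 11.37, 11.67 and 11.50 in naked mole-rats and 5.87, 6.09 and 5.24 in guinea pigs (difference 5.67). Transcription factors of lipogenesis were divided. Srebf1, the sterol-responsive factor that drives lipogenic genes, read 10.55, 11.36, 9.76 and 11.59 against 9.11, 10.70 and 8.10, ranges that overlap (difference 1.51, SE 0.53, adjusted p = 0.0185). Mlxipl, the carbohydrate-responsive factor known as ChREBP, was lower in naked mole-rats, at 9.97, 9.76, 9.74 and 9.92 against 10.62, 12.19 and 10.99 (difference -1.41, SE 0.40, adjusted p = 0.00502), and Agpat2, which acts in triglyceride assembly, differed by -1.39. Srebf1 was not called without naked mole-rat replicate 2 (1.33), naked mole-rat replicate 4 (1.25), guinea pig replicate 1 (1.42) or guinea pig replicate 3 (0.91). Mlxipl was not called without guinea pig replicate 2 (-0.95), and the count of lower genes in the list was 1 without guinea pig replicate 2. The terminal acyltransferases Dgat1 and Dgat2 were not called, with means of 9.25 and 13.48 in naked mole-rats and 8.68 and 13.28 in guinea pigs.

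**Figure D2:**
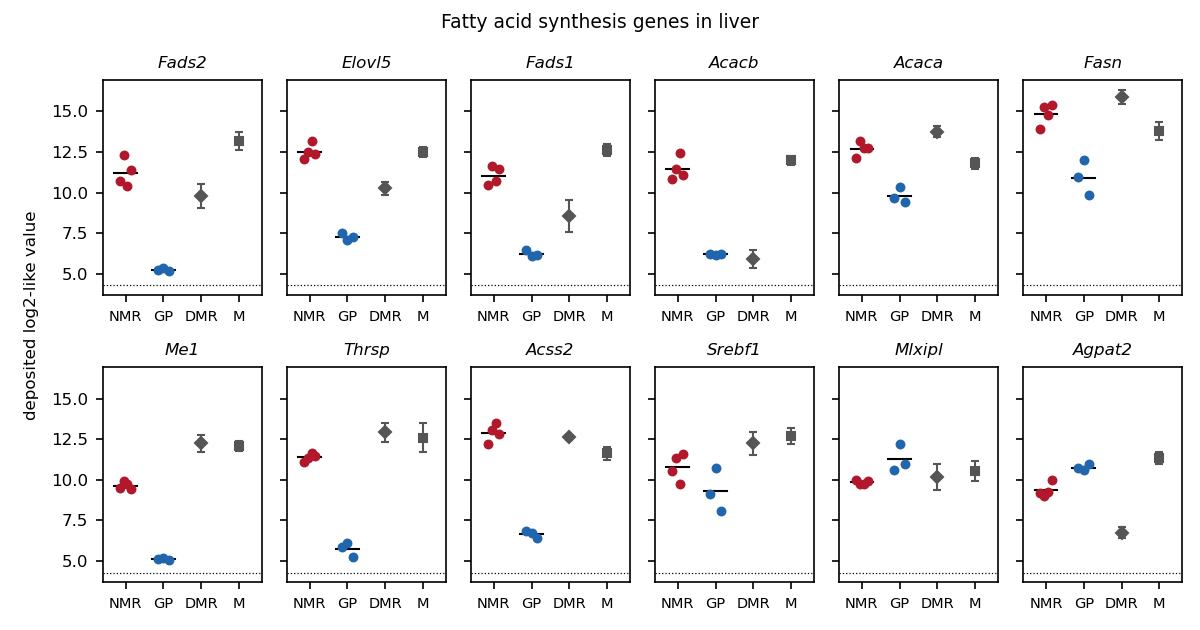
Deposited log2-like values of 12 genes of fatty acid synthesis in liver, with a point for each naked mole-rat (NMR) and guinea pig (GP) library and a bar at their mean, and the mean with SD of 5 Damaraland mole-rats (DMR, diamonds) and 2 mice (M, squares). The dotted line is the value of a gene with 0 reads. The naked mole-rat points lie above the guinea pig points for the first 9 genes, overlap them for Srebf1 and lie below them for Mlxipl and Agpat2.

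Cholesterol synthesis runs from HMG-CoA through squalene, and the resulting sterol feeds back on its own genes. Of 29 tested genes of synthesis, uptake and export, 14 were called higher in the naked mole-rat and 3 lower (58.6%; median difference 0.81). Insig1, which holds the sterol sensor in the endoplasmic reticulum, read 12.33, 12.58, 11.95 and 12.44 against 9.003, 9.32 and 9.65 (difference 2.998, SE 0.22, adjusted p = 2.13e-09), whereas its relative Insig2 was lower (-1.06). Abca1, the exporter that loads cholesterol onto apolipoprotein A-I, differed by 2.64 (SE 0.18). Of the late enzymes, Msmo1, a sterol oxidase, differed by 2.33 and Ebp, a sterol isomerase, by -1.14. Insig2 was not called without naked mole-rat replicate 2 (-0.98), naked mole-rat replicate 4 (-0.99) or guinea pig replicate 3 (-0.89).

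Hmgcs1, the synthase that makes HMG-CoA, was called higher (1.96), with naked mole-rat replicate 3 at 14.26 and the others at 12.52 to 12.57. Abcg5, a subunit of the sterol exporter into bile, was lower (-1.06), and its partner Abcg8 was not called, with a difference of 0.37 (adjusted p = 0.259). Abcg5 was not called without naked mole-rat replicate 3 (-0.97) or guinea pig replicate 2 (-0.92).

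Bile acids are made by a classic route that begins with the 7-alpha-hydroxylation of cholesterol by Cyp7a1, and by an alternative route in which Cyp27a1 oxidises the side chain and Cyp7b1 hydroxylates the product. Of 21 tested genes, 11 were called higher in the naked mole-rat and 3 lower (66.7%; median difference 1.35). Cyp7b1 read 12.31, 12.43, 12.07 and 11.71 in naked mole-rats and 7.04, 6.44 and 6.43 in guinea pigs (difference 5.49, SE 0.25, adjusted p = 4.44e-12), and Cyp39a1, which hydroxylates another oxysterol at the same position, 11.77, 11.89, 11.93 and 11.82 against 7.12, 7.54 and 7.48. Cyp27a1 read 14.48, 14.57, 14.91 and 14.67 against 11.86, 11.42 and 11.66 (difference 3.01). Cyp7a1 was called with the smaller difference of 1.78 (SE 0.55, adjusted p = 0.00896) and with overlapping values, 11.14, 12.22, 12.35 and 11.94 against 11.83, 8.67 and 9.90. Cyp7a1 was not called without guinea pig replicate 2 (1.05). For Cyp7b1 the mouse mean was 12.22 and the Damaraland mole-rat mean 5.89.

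Amacr, a racemase of the side-chain shortening, differed by 3.34, with naked mole-rat replicate 3 at 13.56 and the others at 11.98 to 12.18. Hsd3b7, which acts on the ring early in both routes, was lower in naked mole-rats, at 9.94, 10.11, 10.29 and 10.43 against 12.76, 12.56 and 13.04 (difference -2.59, SE 0.20). The transporters split. Abcb11, the export pump into bile, was lower, at 13.96, 14.05, 14.16 and 13.92 against 15.54, 15.46 and 15.92 (difference -1.62, SE 0.19, adjusted p = 7.08e-07). Abcc3, a pump on the blood side of the hepatocyte, was higher, at 13.63, 13.87, 14.08 and 13.91 against 8.11, 8.13 and 7.99 (difference 5.79, SE 0.53, adjusted p = 3.60e-08), and Slc51a, a subunit of another basolateral exporter, was lower (-2.19). Its partner Slc51b was not called, with a difference of -0.16 (adjusted p = 0.734).

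Apolipoproteins give lipoprotein particles their identity. Of 20 tested genes of apolipoproteins and lipoprotein handling, 7 were called higher and 3 lower in the naked mole-rat (50.0%; median difference 0.40). The count of lower genes was 5 without guinea pig replicate 2. Apoa1, the main protein of high-density lipoprotein, read 14.04, 14.56, 14.49 and 15.46 in naked mole-rat livers and 7.96, 6.51 and 7.07 in guinea pig livers (difference 7.46, SE 0.31, adjusted p = 1.64e-12), or means of 27275 and 122 scaled reads. Damaraland mole-rats (14.86) and mice (17.14) were near or above the naked mole-rat level. The other main protein of that particle, Apoa2, was the reverse: 10.05, 11.01, 10.07 and 10.19 in naked mole-rats and 13.07, 11.38 and 12.19 in guinea pigs (difference -1.88, SE 0.32), both below Damaraland mole-rats (16.23) and mice (16.28).

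Apoa4, which is attached to triglyceride-rich particles, differed by -2.78 and Apoa5, which promotes triglyceride clearance, by -2.68. Of the small C apolipoproteins, Apoc4 read 9.35, 9.95, 8.84 and 9.13 against 5.05, 5.37 and 5.17 (difference 4.12). Apom, a carrier of sphingosine-1-phosphate, differed by 3.62. Apoc1, which the rule for naming genes did not pick, read 16.89, 17.17, 15.65 and 17.21 against 14.20, 13.28 and 14.24. The libraries did not overlap for any gene of this paragraph.

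**Figure D3:**
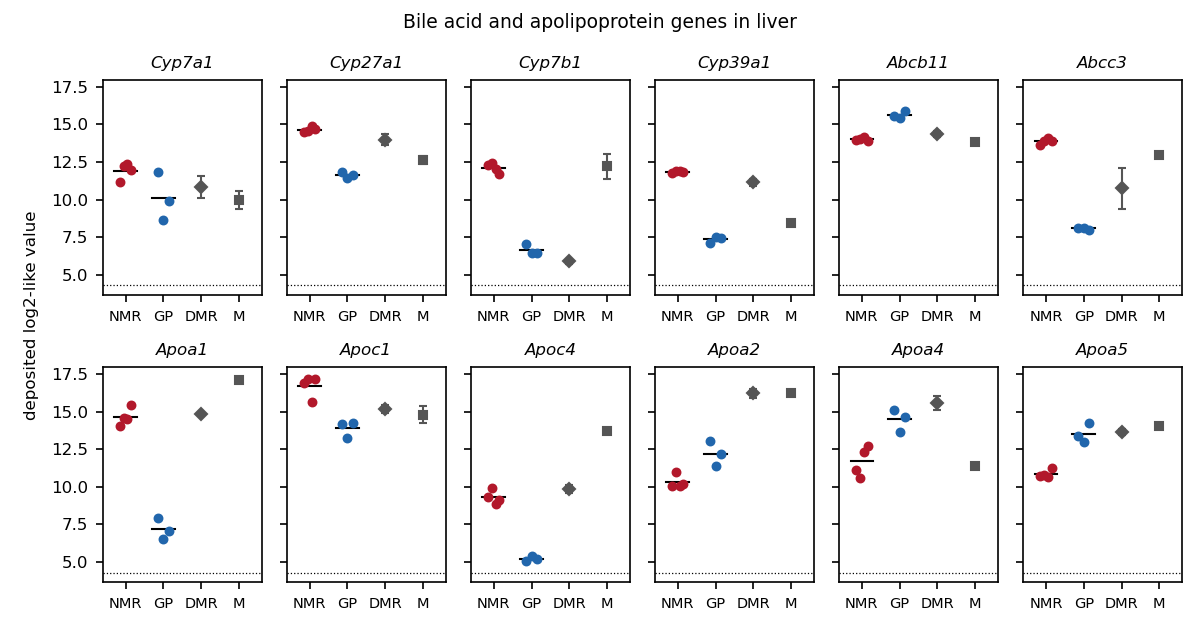
Deposited log2-like values of 6 bile acid genes (upper row) and 6 apolipoprotein genes (lower row) in liver, with a point for each naked mole-rat (NMR) and guinea pig (GP) library and a bar at their mean, and the mean with SD of Damaraland mole-rats (DMR, diamonds) and mice (M, squares). Points of the species overlap for Cyp7a1 alone. Apoa1, Apoc1 and Apoc4 are higher in the naked mole-rat, and Apoa2, Apoa4 and Apoa5 lower.

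Fatty acid oxidation shortens acyl-CoA in mitochondria, with acyl-CoA dehydrogenases for each chain length, and the liver turns the product into ketone bodies. Of 25 tested genes, 9 were called higher in the naked mole-rat and 4 lower (52.0%; median difference 0.55). Acadl, the long-chain dehydrogenase, read 12.56, 12.64, 12.66 and 12.02 in naked mole-rats and 6.97, 6.44 and 6.51 in guinea pigs (difference 5.83, SE 0.19, adjusted p = 9.08e-14). Acadm, the medium-chain dehydrogenase, was lower, at 11.74, 11.72, 12.08 and 11.50 against 13.13, 13.43 and 13.80 (difference -1.69, SE 0.24), and Acadvl, for very long chains, was not called (0.22, adjusted p = 0.311). Bdh1, an enzyme of ketone bodies, differed by 2.91. Acsl1, which activates fatty acids, read 12.97, 13.56, 13.15 and 12.92 against 15.32, 15.74 and 15.95 (difference -2.52), and Slc25a20, the carnitine carrier, differed by -1.26.

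In glycolysis and gluconeogenesis, 3 of 29 tested genes were called higher and 6 lower (31.0%; median difference 0.33). Gckr, a regulatory protein of hepatocytes, differed by 2.78 (SE 0.21), and Pklr, the liver pyruvate kinase, by 1.40. On the side of glucose production, Pcx, which makes oxaloacetate from pyruvate, differed by -2.33 (SE 0.23). G6pc, which releases free glucose, read 11.22, 11.21, 10.81 and 12.52 against 12.74, 12.65 and 13.07 (difference -1.38, SE 0.36, adjusted p = 0.00290).

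Fbp2, the fructose-bisphosphatase known from muscle, read 13.13, 12.99 and 13.22 in guinea pig livers and 4.61, 4.67, 4.71 and 4.57 in naked mole-rat livers, close to the value of 0 reads (difference -8.47). Damaraland mole-rat and mouse livers were also near that value (4.41 and 4.59). In heart the difference had the opposite sign, 5.05. Fbp1, a relative of Fbp2, was not among the matched genes, so its level is not known here. Whether the Fbp2 values come with the matching of genes between species was not tested. Ldhb, the lactate dehydrogenase subunit typical of heart, read 7.76, 8.06, 7.82 and 7.78 in naked mole-rat livers and 11.33, 10.78 and 11.22 in guinea pig livers (difference -3.26), and Hk3, a hexokinase, differed by -2.41.

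Fructose enters hepatocytes, is phosphorylated by ketohexokinase and is split by aldolase B. Of 9 tested genes of fructose and polyol metabolism, 3 were called higher and 4 lower (77.8%; median difference -0.18). The count of lower genes was 2 without guinea pig replicate 2. Slc2a5, the fructose transporter, read 8.03, 8.13, 9.87 and 7.74 in naked mole-rats and 4.89, 4.71 and 4.67 in guinea pigs (difference 3.69), which is 385 and 2.17 scaled reads on average. Khk, the ketohexokinase, read 11.96, 12.21, 12.94 and 12.29 against 11.06, 10.94 and 11.25 (difference 1.27, SE 0.23), and Tkfc, which phosphorylates the glyceraldehyde that aldolase releases, differed by 3.18. Sord and Akr1b3, which link glucose to fructose through sorbitol, were lower (-1.19 and -1.29).

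Of 19 tested glycogen genes, 5 were called higher and 2 lower (36.8%; median difference 0.18). Gys1, the glycogen synthase known from muscle, read 14.05, 14.23, 12.91 and 13.75 in naked mole-rats and 11.99, 11.24 and 10.59 in guinea pigs (difference 2.46, SE 0.35), and both were above Damaraland mole-rats (6.90) and mice (6.12). The liver synthase Gys2 was below the size limit of 1 (0.85, adjusted p = 0.00107). The phosphoglucomutases Pgm1 and Pgm2 differed by 1.95 and 2.35, and Ppp1r3b, which targets a phosphatase to glycogen in liver, by -1.27. Gyg, glycogenin, the primer of glycogen, differed by -1.005, just past the size limit. Gyg was not called without naked mole-rat replicate 1 (-0.98), naked mole-rat replicate 3 (-0.89), guinea pig replicate 1 (-0.87) or guinea pig replicate 3 (-0.999), which left 1 lower gene in the list.

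Of 8 tested genes of vitamin C synthesis and transport, 4 were called higher and 0 lower in the naked mole-rat (50.0%; median difference 0.90). That 0 is by limma: 1 gene was lower at an unadjusted p under 0.05, and voom on recovered reads called 0. The last enzyme of synthesis was not analysed here. Rgn, the gluconolactonase that acts just before it, read 14.19, 14.43, 14.32 and 14.23 in naked mole-rats and 13.03, 12.96 and 13.12 in guinea pigs (difference 1.25, SE 0.21, adjusted p = 5.32e-05). Slc23a1, a sodium-coupled vitamin C transporter, differed by 1.84, Glrx, a glutaredoxin, by 1.41 and Ugp2, which makes UDP-glucose, by 1.42.

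The urea cycle turns ammonia into urea for excretion. Of 12 tested genes, 1 was called higher and 3 lower (33.3%, against 38.7% of all genes; median difference 0.05). Cps1, its entry enzyme, read 15.98, 16.22, 16.51 and 16.60 in naked mole-rats and 16.44, 16.26 and 16.59 in guinea pigs, with overlapping ranges (difference -0.10, SE 0.23, adjusted p = 0.711). Arg1, the arginase that releases urea, read 15.14, 15.78, 15.76 and 15.87 against 12.25, 12.87 and 13.18 (difference 2.87, SE 0.24, adjusted p = 1.02e-08). Asl, which makes its substrate arginine, was lower (-1.33), as were the mitochondrial carriers Slc25a13 (-1.73) and Slc25a15 (-1.47).

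Genes of amino acid and one-carbon breakdown were split, with 8 of 36 called higher and 8 lower (44.4%; median difference -0.11). Amdhd1 of histidine breakdown, Aass of lysine breakdown and Gcdh, which acts further down the lysine route, differed by 1.89, 1.67 and 1.37. Tdo2, which opens tryptophan breakdown, read 11.20, 11.90, 9.93 and 10.56 against 13.02, 12.70 and 13.03 (difference -2.02, SE 0.31), Shmt2, a mitochondrial serine hydroxymethyltransferase, differed by -1.71 and Gstz1, of tyrosine breakdown, by -1.49.

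Many complement and coagulation proteins, though not all, are secreted into plasma by hepatocytes. In complement, 4 of 20 tested genes were called higher and 4 lower (40.0%; median difference -0.09). C4b, the fourth complement component, read 16.13, 16.24, 16.13 and 16.67 in naked mole-rats and 12.90, 8.53 and 9.68 in guinea pigs, with a spread of 2.27 (SD) among the 3 guinea pigs (difference 5.93, SE 0.73, adjusted p = 1.64e-06). C7 and Vtn, which act at the membrane attack complex, differed by 1.69 and 1.31, and the membrane attack subunits C8a and C8b and the lectin pathway protease Masp1 by -1.42, -1.31 and -1.41. Vtn was not called without guinea pig replicate 2 (0.94), and the count of higher complement genes was 2 without guinea pig replicate 2. In coagulation and fibrinolysis, 2 of 23 were called higher and 3 lower (21.7%; median difference -0.03). Serpind1, heparin cofactor II, and F5, factor V, differed by 1.61 and 1.32, and Hrg, F12 and Proz by -1.89, -1.46 and -1.24. Proz was not called without naked mole-rat replicate 2 (-0.99), and the count of lower coagulation genes was 6 without guinea pig replicate 2.

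Among plasma carriers and acute phase proteins, 6 of 21 were called higher and 3 lower (42.9%; median difference 0.12). Serpina7, the thyroxine-binding globulin, read 11.30, 11.28, 10.53 and 10.48 in naked mole-rats and 5.14, 4.29 and 4.75 in guinea pigs (difference 6.17). Ttr, another carrier of thyroxine, was lower (-1.07, SE 0.29). Ttr was not called without naked mole-rat replicate 3 (-0.92) or guinea pig replicate 3 (-0.83). Serpina6, the corticosteroid-binding globulin, read 9.01, 8.59, 6.59 and 8.12 against 10.97, 9.24 and 10.43 (difference -2.14, SE 0.49, adjusted p = 9.92e-04). Crp, C-reactive protein, differed by 2.98 (SE 0.25), and Itih1, a heavy chain that binds hyaluronan, by -1.24. Afp, the fetal albumin, was called with a difference of 2.91 (SE 0.75, adjusted p = 0.00263), but its values in naked mole-rats ran from 6.29 to 11.46 and overlapped those of guinea pigs (6.74, 6.44 and 6.67). Alb was not called, with means of 20.82 and 19.90 (adjusted p = 0.0719).

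Thyroid hormone acts on liver through transporters, deiodinases and nuclear receptors. Of 10 tested genes, 3 were called higher and 2 lower (50.0%; median difference 0.25). Thrsp and Me1, given above, were among the higher ones. Thra, a receptor, differed by -1.24 and Ncor1, a corepressor of the receptors, by -3.32. The other receptor Thrb was not called (0.19, adjusted p = 0.346). Serpina7 and Crym above also bind thyroid hormone. Dio2 had 0 reads in all 7 livers.

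In the growth hormone, insulin and IGF group, 4 of 24 genes were called higher and 4 lower (33.3%; median difference 0.08). Igf1, the growth factor that liver releases under growth hormone, read 13.83, 13.46, 13.82 and 13.44 in naked mole-rats and 11.95, 11.36 and 11.72 in guinea pigs (difference 1.96, SE 0.24, adjusted p = 1.29e-06). Mice averaged 13.66 and Damaraland mole-rats 11.72. Igfbp1, an IGF-binding protein, was higher (2.82, SE 0.60, adjusted p = 5.11e-04), and Igfbp3, the main circulating carrier of IGF1, was lower, at 11.29, 11.57, 11.14 and 10.99 against 14.16, 13.13 and 13.50 (difference -2.35, SE 0.22, adjusted p = 6.42e-08). Prlr, the prolactin receptor, differed by 1.94, and Igfbp5 and Stat5b, a factor downstream of the growth hormone receptor, by -1.88 and -1.49.

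Xenobiotic enzymes differed in both directions. Of 22 tested phase I genes 5 were called higher and 5 lower (45.5%; median difference 0.17; 3 lower where both species had to pass), and of 11 tested conjugation genes 7 higher and 1 lower (72.7%; median difference 1.58). Cyp2f2 read 11.93, 11.79 and 12.46 in guinea pigs and 5.55, 5.05, 5.07 and 5.07 in naked mole-rats (difference -6.87), with a mouse mean of 14.95 and a Damaraland mole-rat mean of 5.16. Fmo5 and Cyp2s1 were also lower (-2.79 and -2.03), and Cyp2u1 and Ephx2, the soluble epoxide hydrolase, were higher (3.07 and 2.28). Among conjugating enzymes, Glyat, which joins glycine to acyl groups, read 13.49, 13.04, 12.41 and 12.91 against 8.85, 7.96 and 7.46 (difference 4.88, SE 0.31). Sult1c2, a sulfotransferase, averaged 9.06 in naked mole-rats and was listed at 0 in all guinea pig livers. Many families of these enzymes had few matched members, 12 of 30 listed in conjugation and 23 of 39 in phase I.

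The oxidative stress regulator Nfe2l2 (NRF2) and its inhibitor Keap1 were not called: Nfe2l2 read 10.59, 10.59, 10.05 and 10.28 in naked mole-rats and 10.12, 10.59 and 10.26 in guinea pigs (difference 0.06, adjusted p = 0.811), and Keap1 10.60, 10.69, 10.92 and 10.83 and 10.42, 10.55 and 10.60 (difference 0.24, adjusted p = 0.203). Among 19 tested regulators and targets, 3 were called higher and 4 lower (36.8%; median difference 0.06). Both subunits of the enzyme that limits glutathione synthesis were lower: Gclc, the catalytic subunit, read 9.18, 9.22, 9.99 and 9.38 against 11.75, 12.28 and 12.36 (difference -2.69, SE 0.21, adjusted p = 6.46e-09), and Gclm, the modifier, differed by -1.70 (SE 0.27, adjusted p = 2.83e-05). Fth1, ferritin heavy chain, differed by -1.51. Txnrd1, a thioredoxin reductase, and Hmox1, heme oxygenase, were higher (1.95 and 1.13). Hmox1 was not called without guinea pig replicate 2 (0.91).

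Enzymes that remove superoxide and peroxides had 2 of 17 genes called higher and 6 lower (47.1%; median difference -0.26). Cat, the catalase, read 14.35, 14.37, 14.30 and 14.18 in naked mole-rats and 17.03, 16.48 and 17.15 in guinea pigs (difference -2.59, SE 0.23, adjusted p = 2.47e-08), and Damaraland mole-rats (15.34) and mice (15.16) lay between. Gpx4, which reduces lipid peroxides, read 8.94, 9.10, 8.47 and 8.53 against 11.18, 10.87 and 11.56 (difference -2.44, SE 0.20, adjusted p = 9.26e-09). Prdx5, a peroxiredoxin, differed by -2.46. The higher ones were Sod2, the mitochondrial superoxide dismutase (1.73, SE 0.21), and Gpx3, a secreted peroxidase (1.597, SE 0.25). In iron handling, 3 of 17 genes were called higher and 2 lower (29.4%; median difference -0.12): Slc40a1, the iron exporter ferroportin, differed by 1.96, Tfr2, a transferrin receptor that senses iron, by 1.08, Ireb2, an iron regulatory protein, by 1.05 and Id1, a BMP target gene, by -2.79. Tfr2 was not called without naked mole-rat replicate 4 (0.91) or guinea pig replicate 1 (0.95), and the count of lower iron genes was 4 without naked mole-rat replicate 3.

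Ribosomal proteins build the cytosolic ribosome. Of 68 tested genes, 26 were called higher and 3 lower (42.6%, against 38.7% of all genes; median difference 0.77). The count of higher genes was 17 without guinea pig replicate 2. Rplp0, of the ribosomal stalk, read 14.03, 14.68, 13.64 and 14.01 against 12.66, 11.56 and 12.09 (difference 1.99, SE 0.26), and Rpl23a and Rpl24 differed by 1.97 and 1.93. The lower ones, Rpl8, Rpl4 and Rps13, had means of 0, 0.806 and 0 scaled reads in naked mole-rats, and 0 genes were called lower once both species had to pass the limit on low values. Rpl8 and Rps13 are listed at 0 in every naked mole-rat liver. Many ribosomal protein genes have near-identical processed copies, so their values are uncertain.

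Of nuclear subunits of the respiratory chain, 7 of 33 tested complex I genes were called higher and 3 lower (30.3%; median difference 0.36), and 7 of 36 genes of the other complexes were called higher and 4 lower (30.6%; median difference 0.36). Ndufb7, Ndufs8 and Ndufv2 of complex I differed by 2.36, 1.95 and 1.76, and Sdhd of complex II, Uqcr11 of complex III and Atp5g1 of ATP synthase by 2.05, 1.66 and 1.37. Ndufab1, Ndufb6 and Ndufc2 were lower (-5.24, -1.93 and -1.25), where Ndufab1 averaged 0.612 scaled reads in naked mole-rats. Cox7c of cytochrome oxidase read 8.57, 8.46, 6.74 and 6.80 against 10.77, 10.71 and 11.16 (difference -3.24), and Uqcr10 and Atp5e differed by -1.62 and -1.45. Of 12 genes of the mitochondrial genome, 4 were called higher and 2 lower (50.0%; median difference 0.66), with mt-Nd2, mt-Co2 and mt-Nd4l (the last with overlapping libraries) at 1.75, 1.34 and 1.30 and mt-Nd6 and mt-Nd1 at -1.64 and -1.49. mt-Nd4l was not called without guinea pig replicate 2 (1.02). mt-Co2 fell below the size limit under quantile normalisation (0.94), which left 2 higher genes in that list.

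Few proteasome genes were called: 1 of 36 tested subunits was called higher and 2 lower (8.33%, against 38.7% of all genes; median difference -0.06). Psmd7 was the higher one (1.08), and Psmb10, an immunoproteasome subunit, and Psmd4, a ubiquitin receptor, the lower ones (-1.07 and -1.01). All 3 are near the size limit: Psmd7 was not called without guinea pig replicate 2 (0.98) or guinea pig replicate 3 (0.99), Psmb10 was not called without naked mole-rat replicate 3 (-0.93), and Psmd4 was not called without naked mole-rat replicate 1 (-0.98), naked mole-rat replicate 2 (-0.96), naked mole-rat replicate 3 (-0.98) or guinea pig replicate 3 (-0.97). The count of higher subunits was 3 without naked mole-rat replicate 1 or guinea pig replicate 1 and 2 without naked mole-rat replicate 2 or naked mole-rat replicate 3 and 0 without guinea pig replicate 2, and that of lower ones 1 without naked mole-rat replicate 1 or guinea pig replicate 3 and 0 without naked mole-rat replicate 3. Among chaperones, 4 of 33 were called higher and 1 lower (15.2%; median difference 0.04), or 0 lower where both species had to pass. The count of lower chaperones was 2 without guinea pig replicate 2. The mitochondrial pair Hspe1 and Hspd1 differed by 2.31 and 1.44, and Hspb8, a small heat shock protein, by 2.17. Hsp90aa1 read 4.93, 4.67, 4.29 and 4.68 in naked mole-rats, next to the value of 0 reads, and 14.02, 13.90 and 13.94 in guinea pigs (difference -9.31), while its relative Hsp90ab1 was below the size limit (0.79, adjusted p = 0.00334). Dnaja1 had the reverse arrangement, 11.61, 11.03, 11.81 and 10.81 against 4.67, 5.48 and 4.29. In heart, Hsp90aa1 differed by -7.88 and Dnaja1 by 4.87.

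Of 33 autophagy and lysosome genes, 5 were called higher and 6 lower (33.3%; median difference -0.11). The ubiquitin-like proteins that coat autophagosomes differed in both directions: Gabarap read 12.14, 12.11, 11.71 and 12.09 against 9.13, 8.71 and 8.85 (difference 3.12, SE 0.18), and Map1lc3a and Map1lc3b differed by -2.74 and -2.73. The lysosomal enzymes Gla and Hexa differed by 2.04 and -2.78, and the cholesterol exporter Npc1 by 1.502.

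**Figure D4:**
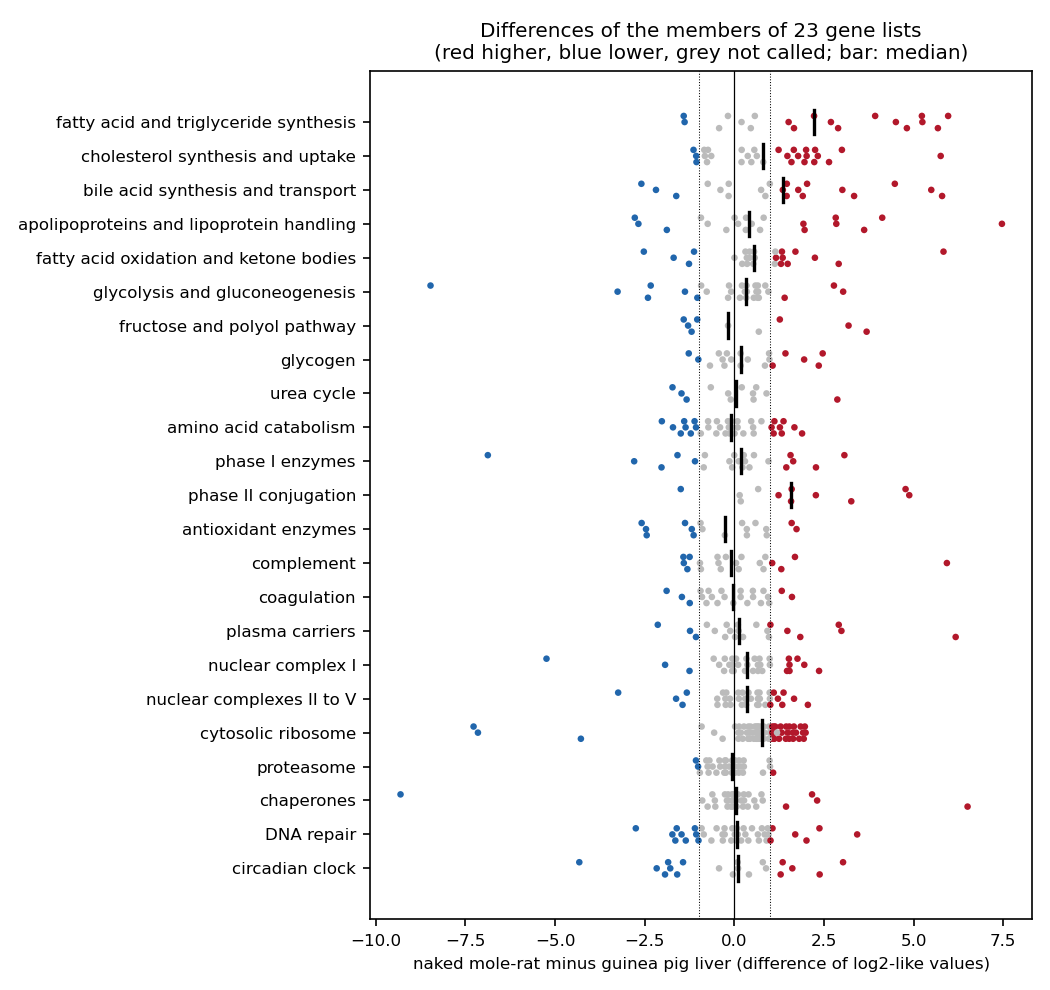
Differences (naked mole-rat minus guinea pig, log2-like values) of the tested members of 23 gene lists, with a point for each gene, red where called higher, blue where called lower and grey where not called, and a bar at the list's median. Dotted lines mark differences of 1 in either direction. The median is 2.22 for fatty acid and triglyceride synthesis and 1.35 for bile acid genes, while the proteasome points lie close to 0.

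Among 41 DNA repair genes, 6 were called higher and 9 lower (36.6%; median difference 0.07). Neil1, a DNA glycosylase, differed by 2.37 and Xrcc6, a subunit of Ku, by 2.01, while the other Ku subunit Xrcc5 was below the size limit (0.49, adjusted p = 0.0236). Xpc, which recognises bulky lesions, read 8.21, 8.24, 8.36 and 8.65 against 10.77, 11.53 and 11.03 (difference -2.75, SE 0.22), and Parp2 and Ercc5 differed by -1.73 and -1.65. In the p53 and senescence list, 4 of 19 were called higher and 4 lower (42.1%; median difference -0.52). Bax, which permeabilises mitochondria in cell death, read 7.35, 7.16, 7.76 and 7.85 against 13.09, 12.23 and 13.05 (difference -5.26, SE 0.22, adjusted p = 1.42e-12), with 8.22 in Damaraland mole-rats and 8.40 in mice. Mdm2, the ligase that degrades p53, averaged 4.56 scaled reads in naked mole-rats and 372 in guinea pigs, and Trp53inp2 differed by -1.65. Cdkn1a, the inhibitor p21, Gadd45g and Tigar were higher (1.68, 1.70 and 1.63). Gadd45g was not called without naked mole-rat replicate 4 (0.99), and the count of higher genes in the list was 2 without naked mole-rat replicate 4.

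In the hypoxia pathway, 5 of 19 tested genes were called higher and 2 lower (36.8%; median difference 0.07), or 3 higher where both species had to pass. Epas1, which encodes HIF-2 alpha, read 12.99, 13.24, 13.08 and 12.97 against 11.57, 10.97 and 11.54 (difference 1.71, SE 0.18, adjusted p = 2.67e-07). Hif1a was not called (0.29, adjusted p = 0.106). Cygb, a globin of stellate cells and fibroblasts, differed by 2.18 and Egln3, an oxygen-sensing prolyl hydroxylase, by 1.595, and the collagen hydroxylases P4ha1 and P4ha2 by -1.25 and -1.94. P4ha1 was not called without guinea pig replicate 1 (-0.99), which left 1 lower gene in the list.

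Hyaluronan is a matrix sugar that naked mole-rat fibroblasts are known to release in a very long form. Of 10 tested genes, 2 were called higher and 3 lower (50.0%; median difference -0.53), or 1 higher where both species had to pass. Has2, a hyaluronan synthase, was too low to be kept, with at most 4 reads in any of the 7 libraries. Cd44, a hyaluronan receptor, read 7.23, 7.39, 6.98 and 7.14 in naked mole-rats and 10.16, 9.43 and 9.27 in guinea pigs (difference -2.44, SE 0.21, adjusted p = 1.66e-08). Stab1, a scavenger receptor of liver endothelium, differed by -3.11 and Cemip2, a hyaluronidase at the cell surface, by -1.35. Hyal1, a lysosomal hyaluronidase, was higher (2.95, SE 0.26), as was Tnfaip6, which modifies hyaluronan (1.70).

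The circadian clock list had 5 of 19 genes called higher and 7 lower (63.2%; median difference 0.09). The time of day of sampling is not given in the sources used here. Npas2, a partner of BMAL1 in the positive arm, read 9.40, 9.18, 9.18 and 9.16 against 6.25, 6.22 and 6.13 (difference 3.03, SE 0.25). The output factors of the PAR bZIP family were split: Hlf read 6.02, 6.06, 5.88 and 5.99 against 9.78, 10.73 and 10.42 (difference -4.32, SE 0.20) and Dbp differed by -2.17, while Tef differed by 2.38. Nfil3, which opposes them, differed by 1.62 and Per2 by -1.93.

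Among innate sensing and interferon genes, 7 of 26 were called higher and 2 lower (34.6%; median difference 0.39). The interferon regulators Irf7 and Irf9 differed by 2.32 and 1.68, and Mavs, the mitochondrial adaptor of RNA sensors, by 1.67. Rsad2, an antiviral enzyme, and Il1b were lower (-2.36 and -1.65). Of 17 hepatocyte transcription factors, 4 were called higher and 5 lower (52.9%; median difference -0.09). Ppara, which drives fatty acid oxidation genes, differed by 1.70, Prox1, a factor of hepatocyte development, by 1.20 and Nr1h3, a sterol-sensing receptor, by 1.20. Prox1 was not called without guinea pig replicate 1 (0.96). Nr1h3 fell below the size limit under quantile normalisation (0.97) and array weights (0.92). Rxra, the common partner of these receptors, read 11.08, 11.10, 11.50 and 11.09 against 12.99, 13.33 and 13.47 (difference -2.07, SE 0.17), and Xbp1 and Nr5a2 differed by -1.63 and -1.55. Hnf4a, the factor that holds hepatocyte identity, was below the size limit (0.74, adjusted p = 0.00116).

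Markers of the cell types a liver piece can hold were summed in scaled reads for each library. Of hepatocyte markers 12 of 15 were matched, and 3 were called higher and 2 lower (41.7%, against 38.7% of all genes). Their sum ran from 1994300 to 3309900 in naked mole-rats and from 1095900 to 1805100 in guinea pigs, most of it Alb. Tat, a tyrosine aminotransferase, was among the higher ones (1.12). Tat was not called without naked mole-rat replicate 4 (0.88) or guinea pig replicate 2 (0.75), and the count of lower hepatocyte markers was 1 without naked mole-rat replicate 3 or guinea pig replicate 3. Of 11 tested bile duct markers, 2 were called higher and 3 lower (45.5%; 1 lower where both species had to pass), and the sums overlapped (4698 to 5590 against 4224 to 5144). Epcam read 11.42, 11.32, 10.91 and 11.04 in naked mole-rats and 7.08, 6.42 and 6.54 in guinea pigs (difference 4.49, SE 0.25), and Krt19 went the other way, 8.24, 7.97, 8.18 and 7.79 against 9.99, 10.97 and 9.59 (difference -2.14, SE 0.40). Krt7 and Cldn4 were also lower in naked mole-rats (-1.65 and -1.06), and Onecut1, a factor of bile duct development, was higher (1.17). Cldn4 was not called without naked mole-rat replicate 3 (-0.995) or guinea pig replicate 2 (-0.95). Onecut1 was not called without guinea pig replicate 3 (0.70), which left 1 higher marker.

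For Kupffer cells and macrophages, 0 of 7 tested markers were called higher and 2 lower (28.6%, against 38.7% of all genes), with overlapping sums (5564 to 8867 against 6623 to 10934). Cd68 and Msr1 were the lower ones (-2.53 and -1.27). Cd163, at 0 in all naked mole-rat livers, was too low over the livers of both species to be kept and was not tested. By limma 0 markers were higher at an unadjusted p under 0.05, and voom on recovered reads called 0. For liver endothelium, 0 of 14 were called higher and 2 lower (14.3%), namely Stab1 and Pecam1 (-1.41). The median difference of the endothelial markers was -0.58, and their sums did not overlap (12602 to 16022 against 20849 to 23824). For the endothelial markers, 1 was higher at an unadjusted p under 0.05 by limma, voom called 0, and the limma count of higher markers was 1 without naked mole-rat replicate 1 or guinea pig replicate 1. For stellate cells and fibroblasts, 2 of 14 were called higher and 5 lower (50.0%), and the sums overlapped (12519 to 17348 against 14585 to 20908). Dcn, decorin, read 7.76, 7.64, 6.83 and 6.95 against 11.20, 10.21 and 10.90 (difference -3.48, SE 0.27), Rgs5 and Lum differed by -4.34 and -3.45, and Pdgfrb and Col1a2 by 1.57 and 1.02. Col1a2 was not called without naked mole-rat replicate 4 (0.89) or guinea pig replicate 3 (0.74). In the collagen and crosslinking list, 2 of 23 were called higher and 7 lower (39.1%; median difference -0.52), with Col5a1, Plod2 and Plod1 at -2.89, -1.98 and -1.71 and Mmp2 at 2.12. The count of higher collagen genes was 1 without naked mole-rat replicate 4 or guinea pig replicate 3, and that of higher stellate markers 1 without naked mole-rat replicate 4.

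Lymphocyte markers were low. The 9 matched markers, of which 4 were tested, summed to 111 to 222 scaled reads in naked mole-rats and 1810 to 2390 in guinea pigs. Most of the guinea pig sum was on average Cd3e, which passed the limit on low values through the guinea pig alone. Pdcd1, given above and not in this list, went the other way. Of the 4 tested, 0 were called higher by limma, with 0 at an unadjusted p under 0.05 and 0 by voom, and 3 lower (75.0%, against 38.7% of all genes). Cd3e, a chain of the T cell receptor complex, read 5.14, 5.05, 4.29 and 5.73 in naked mole-rats and 10.27, 10.12 and 10.67 in guinea pigs (difference -5.30). Cd3g, another chain of the same complex, differed by -1.44, and Cd3d, a further chain, was too low to be kept, with 8.44 and 4.89 scaled reads on average. Cd79a, of the B cell receptor, differed by -3.11, and Ptprc, the pan-leukocyte marker CD45, was below the size limit (-0.84, adjusted p = 0.00911). The part of these cells in any gene's difference was not tested.

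**Figure D5:**
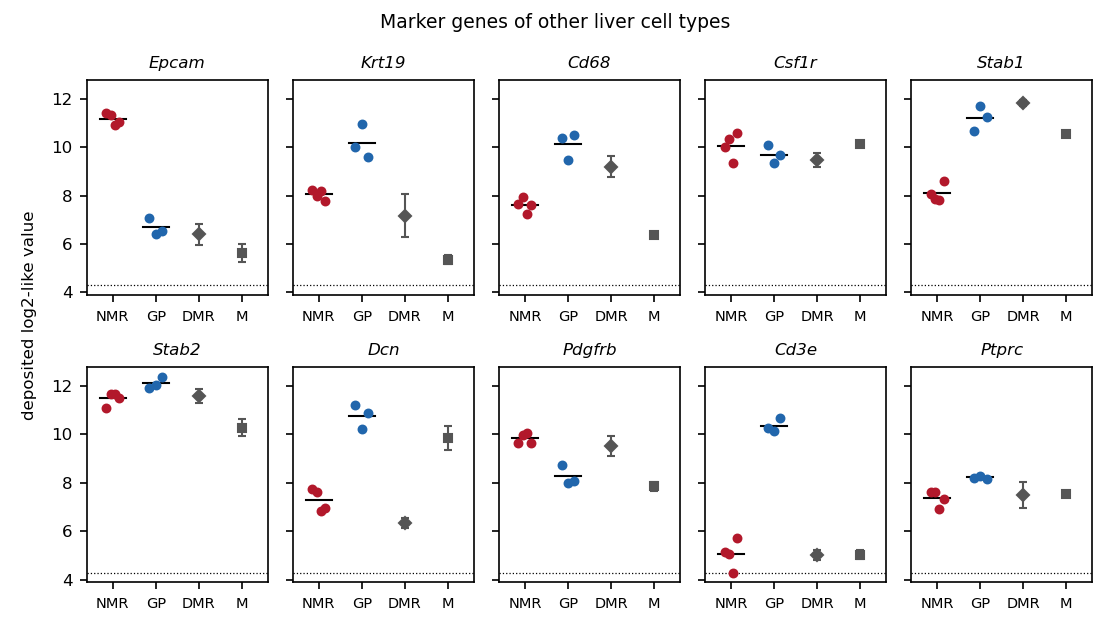
Deposited log2-like values of 10 markers of other liver cell types (upper row bile duct, macrophage and the endothelial marker Stab1, lower row the endothelial marker Stab2, stellate cell and leukocyte), with a point for each naked mole-rat (NMR) and guinea pig (GP) library, a bar at their mean, and the mean with SD of Damaraland mole-rats (DMR, diamonds) and mice (M, squares). Epcam is higher and Krt19 lower in the naked mole-rat, and Cd3e lies near the dotted line of 0 reads in every species but the guinea pig.

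The remaining marker lists had few members above the limit. Of neutrophil markers 3 were tested and none was called by limma or by voom on recovered reads, while 2 were higher at an unadjusted p under 0.05. The largest difference was that of Ltf, lactoferrin (0.90), followed by the granule protein Ngp (0.86), and the count of higher markers was 1 without naked mole-rat replicate 1, naked mole-rat replicate 3, guinea pig replicate 2 or guinea pig replicate 3. Of 5 tested erythroid markers 60.0% were called: 1 higher, Klf1 (1.47; 0 where both species had to pass), and 2 lower, Sptb (-2.39) and Ank1 (-2.32). Of 12 tested genes of dividing cells, 4 were called higher and 3 lower (58.3%, against 38.7% of all genes; median difference 0.06). The replication licensing genes Mcm6 and Mcm2 and the thymidylate synthase Tyms differed by 1.99, 1.90 and 1.95, and Pcna, Mcm5 and Plk1 by -1.82, -1.605 and -1.05. Plk1 was not called without naked mole-rat replicate 4 (-0.99) or guinea pig replicate 2 (-0.53). Of 12 striated muscle markers, 0 were called higher and 2 lower (16.7%, against 38.7% of all genes; median difference 0.09). The lower ones were Tnnc1 (-4.43) and Ttn (-2.11). Of the 12 muscle markers, 1 was higher at an unadjusted p under 0.05 by limma, voom called 1 higher, and the limma count was 2 without guinea pig replicate 1. The summed scaled reads of the 12 ran from 2270 to 3226 in naked mole-rats and from 5340 to 8904 in guinea pigs, while 10 of the 12 were not called. Of 2 tested markers of pancreas, gut or adrenal, Star was called lower (-1.91), at 2.69 and 62.7 scaled reads on average. The count of lower markers was 0 where both species had to pass. Star was under the limit on low values without guinea pig replicate 2 or 3. No marker of this list was called higher by limma, with 1 at an unadjusted p under 0.05 and 0 by voom, and the limma count was 1 without guinea pig replicate 1, guinea pig replicate 2 or guinea pig replicate 3.

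The same contrast in heart came from 3 libraries of each species in a table normalised separately. It showed how far the 20 liver differences picked first by the naming rule were shared between the tissues. Naked mole-rat heart replicate 3 was shallow, with 4089633 recovered reads against 19096882 and 22526618 in replicates 1 and 2. Across all genes tested in heart, 34.2% were called, 16.8% higher in the naked mole-rat and 17.3% lower. These 20 had the largest differences among called genes with both species present and libraries that did not overlap. Of them, 18 were tested in heart, 12 were called in the same direction and 2 in the opposite one. Genes that passed the limit on low values through a single species are not among the 20, such as Fbp2 (-8.47 in liver and 5.05 in heart). Ahnak, Macf1, Epn1 and Pon3 differed by 6.97, -5.75, -4.83 and -4.59 in heart. Miox and Crym, with liver differences above 8, differed by 1.16 and 1.86 in heart. Apoa1 was opposite, with a heart difference of -2.97, and so was Slc6a13 (1.21). Gatm, Psen2, Acss2 and C1qtnf3 were not called in heart, with differences of 0.49, -0.54, 0.90 and 0.43. No test between the tissues was made, since hearts and livers were transformed separately.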

How the data were processed

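RNA of 14 livers and 14 hearts of 4 species was sequenced. The authors deposited log2-like values, 1 table per tissue, which have the form of a variance-stabilising transform. The submitters' processing notes name cutadapt, Salmon 013.1, DESeq2 and the mouse build GRCm38, with no role given; the index and the gene matching between species are not given in the sources used here. Inverting the transform returned whole reads for 100% of values (tolerance 0.001). Symbols were matched for 13921 of 13928 rows. 26 columns that match no sample label (11 liver, 15 heart) were not used. No sequence table was used here.

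The liver comparison was fitted with limma 3.58.1 in R 4.3.3 (empirical Bayes with a variance trend) over all 14 livers with 1 coefficient per species. P-values were adjusted by Benjamini-Hochberg over all 10807 genes. The heart table was fitted in the same way. The fit was tested on simulated reads of 10542 genes: of 98 genes changed 4-fold 85.7% were called and of 100 changed 2-fold 21%, and 11 of 10344 unchanged genes were called.

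Genes were named by rule: the 10 largest called differences in each direction with libraries that did not overlap and both species present, the 5 highest genes listed at 0 in all livers of the other species, up to 3 called genes per direction in each of 47 gene lists (the largest difference where none was called), 16 fixed genes, and reaction or complex partners of a named gene. Acaca, Acadvl, Amacr, Apoc1, Cd163, Cd3d, Cyp27a1, Dgat1, Dgat2, Dio2, Elovl5, Fads1, Fasn, Gys2, Hif1a, Hmgcs1, Hnf4a, Hsp90ab1, Msmo1, Ngp, Pcx, Ptprc, Srebf1 and Thrb fell outside this rule and were chosen after their values were seen, as were the genes of the other observations. Some genes that the rule names are not reported here. The members and lists were chosen with earlier results of these data known. Alternatives tried were other size limits, filters, scalings, variance models, sample weights, voom on recovered reads, the replicate number as a block, and dropping each library in turn.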

Additional observations from a re-analysis of the deposited data

Results flagged for a closer look

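In the 4 naked mole-rat livers, 293 measures named here, the total recovered reads among them, were screened for a library far from the other 3, and 21 stood apart. Chance alone picks about 1 in 20 groups of this size. The values that follow carry no explanation, and no cause was tested.

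Replicate 3 stood apart for 6 genes. It was high for Hmgcs1 (14.26 against 12.52 to 12.57 in the others), Amacr (13.56 against 11.98 to 12.18 in the others) and Rxra (11.50 against 11.08 to 11.10 in the others). It was low for Abca1 (11.37 against 11.96 to 12.05 in the others), Gabarap (11.72 against 12.09 to 12.14 in the others) and Psen2 (7.02 against 7.56 to 7.60 in the others).

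Replicate 1 was high for Hnf4a (13.69 against 13.30 to 13.35 in the others), Npas2 (9.40 against 9.16 to 9.18 in the others) and Cyp2f2 (5.55 against 5.05 to 5.07 in the others). It was low for Arg1 (15.14 against 15.76 to 15.87 in the others). Replicate 2 was high for Apoa2 (11.01 against 10.05 to 10.19 in the others) and Ebp (9.94 against 9.22 to 9.29 in the others), and low for Hk3 (4.67 against 5.01 to 5.07 in the others). Replicate 4 was high for Hexa (8.66 against 7.95 to 8.03 in the others), Psmd4 (9.96 against 9.47 to 9.53 in the others) and Sptb (7.65 against 6.87 to 7.005 in the others), and low for Acadl (12.02 against 12.56 to 12.67 in the others) and Ireb2 (10.17 against 10.43 to 10.48 in the others). Transporters described under the other observations also stood apart: replicate 1 was high for Slc22a2 (5.97 against 4.59 to 4.68 in the others) and Slc1a2 (5.66 against 4.67 to 4.71 in the others), and replicate 2 for Abcg2 (6.56 against 6.13 to 6.18 in the others). Cyp2f2, Hk3, Slc1a2 and Slc22a2 passed the limit on low values through the guinea pig alone. Their naked mole-rat values rest on few reads, near the value of 0 reads (4.29).

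Of 246 named genes tested in both tissues, 29 had all naked mole-rat libraries on one side of the guinea pig libraries in liver and on the other side in heart (11.8%). Over all 10072 genes tested in both tissues the number was 884 (8.78%), and the named genes were picked largely for their liver difference. The difference between the tissues was not tested. Hearts and livers came partly from the same animals and were transformed separately.

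Apoa1 had a heart difference of -2.97 against 7.46 in liver. The complement genes C7, C8a and C8b had heart differences of -1.14, 1.03 and 1.55 against liver differences of 1.69, -1.42 and -1.31. Hrg and F12 differed by 1.86 and 1.13 in heart against -1.89 and -1.46 in liver. Ttr and Itih1 differed by 2.28 and 1.78 in heart against -1.07 and -1.24 in liver.

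Fbp2 had a heart difference of 5.05 against -8.47 in liver. G6pc differed by 0.98 in heart against -1.38 in liver, and Ugp2 by -0.74 against 1.42. Acadm differed by 0.50 against -1.69 and Dgat1 by -1.57 against 0.57. Npc1 differed by -1.38 against 1.502 and Abcb11 by 1.79 against -1.62. Asl differed by 0.78 against -1.33, Aass by -0.81 against 1.67, Slc6a13 by 1.21 against -6.01 and Aqp7 by -0.86 against 4.91.

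Mmp2 differed by -2.005 in heart against 2.12 in liver, and Col1a2 by -1.36 against 1.02. The collagen hydroxylases Plod2 and P4ha2 differed by 1.10 and 1.42 against -1.98 and -1.94. Cdkn1a differed by -1.78 against 1.68, Xrcc6 by -1.001 against 2.01 and Xpc by 0.63 against -2.75. Sod2 differed by -0.56 against 1.73, Hspb8 by -0.98 against 2.17 and Sptb by 1.75 against -2.39.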

How the results depend on the processing

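The count of 4177 called genes (2148 higher, 2029 lower) moved by more than 1.5 times under changes of the size limit or filter. An adjusted p alone called 7200 (3655 higher, 3545 lower), and limma treat against a difference of 1 called 2447 (1257 higher, 1190 lower). A mean at least 3 above the minimum left 7555 genes, of which 2747 were called (1252 lower). Under the other filters, scalings, variance models and weights the count ran from 3406 to 5002, the highest from voom on recovered reads. Leaving out 1 library gave 4107 to 4274 called genes (2124 to 2247 higher, 1951 to 2075 lower). In heart, 12 of the 20 genes picked first by the naming rule were called in the liver's direction. The number was 10 to 13 when a heart library was left out, an alternative chosen after seeing the data. Of 269 named genes called in liver, 244 were called without each of the 7 livers in turn, and the 25 others are given beside their values in the report or, for Pex10 and Pex3, in the other observations. Quantile normalisation turned the sign of 3 genes that were not called: Acadvl (-0.0016), Dgat2 (-0.16) and Nfe2l2 (-0.0075). The sign of 17 of 47 list medians turned under at least 1 alternative: -0.68 for the pancreas, gut and adrenal markers and values from -0.18 to 0.17 for the rest (under quantile normalisation those of the urea cycle, NRF2, plasma carriers and chaperones). The pancreas, gut and adrenal list had no gene left under the stricter filters. Leaving out a library turned the sign of 3 genes that were not called: Cps1 (-0.19 to 0.014, turned without naked mole-rat replicate 1), Slc51b (-0.38 to 0.029, turned without naked mole-rat replicate 3 or guinea pig replicate 2) and Nfe2l2 (-0.047 to 0.19). Their causes were not tested. Replicate numbers did not pair the animals: deviations of same-numbered libraries correlated at 0.133, -0.228 and 0.101 across genes, and not every library correlated best with its own number. With the replicate number as a block, replicates 1 to 3 gave 4179 called genes. Named calls also ended under other settings. Limma treat, a stricter test, ended 72 of the 269. Quantile normalisation ended 7, namely Col1a2 (0.99), Nr1h3 (0.97), Prox1 (0.96), Tat (0.87), Tfr2 (0.74), Vtn (0.91) and mt-Co2 (0.94). Array weights ended 7, namely Abcg5 (-0.9995), Cldn4 (-0.97), Gyg (-0.98), Nr1h3 (0.92), Plk1 (-0.71), Tat (0.80) and Tfr2 (0.93), the replicate block 6, namely Col1a2 (0.89), Gadd45g (0.99), Insig2 (-0.99), Plk1 (-0.99), Tat (0.88) and Tfr2 (0.91), no filter 2 by the adjusted p, namely Col1a2 (1.02) and Srebf1 (1.51), and median centring 1, namely Gyg (-0.996). The blocked value changed no other named call. Of the higher and lower counts of the 47 lists, 49 moved by more than 1.5 times under treat and 38 with no size limit. Others are given as the new count for the reported one. With a mean at least 3 above the minimum, 15 moved: glycogen lower 1 for 2, antioxidant higher 1 for 2, DNA repair lower 4 for 9, p53 higher 2 for 4, hypoxia higher 2 for 5, hypoxia lower 1 for 2, hyaluronan higher 1 for 2, interferon lower 1 for 2, collagen lower 4 for 7, bile duct lower 1 for 3, lymphocyte lower 1 for 3, erythroid higher 0 for 1, dividing cells higher 2 for 4, muscle lower 1 for 2 and pancreas, gut and adrenal lower 0 for 1. With quantile normalisation 8 moved: vitamin C lower 1 for 0, complement higher 2 for 4, coagulation lower 6 for 3, hepatocyte factors higher 2 for 4, mitochondrial genome higher 2 for 4, chaperones lower 2 for 1, collagen higher 1 for 2 and stellate higher 1 for 2. With voom 6 moved: proteasome higher 3 for 1, chaperones lower 2 for 1, DNA repair higher 12 for 6, p53 lower 8 for 4, bile duct lower 5 for 3 and muscle higher 1 for 0. Fewer moved with array weights (amino acid breakdown higher 5 for 8, glycogen lower 1 for 2 and coagulation lower 6 for 3), no filter (collagen higher 1 for 2, stellate higher 1 for 2 and pancreas, gut and adrenal higher 2 for 0), median centring (glycogen lower 1 for 2 and proteasome higher 2 for 1) and the replicate block (collagen higher 1 for 2 and stellate higher 1 for 2). The form of the transform limits rare genes most: a 2-fold change moves the value by 0.392 at 10 scaled reads and by 0.973 at 1000, below the size limit of 1. In simulated reads, where most genes were unchanged, 21% of 2-fold changes were called.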

Other observations

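Families grouped by symbol after the liver values had been seen add other parts of liver biology, given as counts by limma as above, beside the 38.7% called over all genes. Solute carriers move metabolites and ions across membranes, and of 229 tested 60 were called higher in the naked mole-rat and 63 lower (53.7%). Slc22a2, an organic cation transporter known from kidney, read 5.97, 4.67, 4.59 and 4.68 in naked mole-rats and 12.71, 12.46 and 12.78 in guinea pigs (difference -7.67). Slc1a2, a glutamate transporter, differed by -6.93, Slc1a4, a transporter of neutral amino acids, by 5.83, and Slc6a11, a GABA transporter, by 6.95. Of 34 ABC transporters 8 were higher and 10 lower (52.9%). Abcc4, an exporter on the blood side of hepatocytes, was at 4.94 and Abcg2, an exporter on the bile side, at -3.95. Of 6 aquaporins 2 were higher and 1 lower (50.0%). Aqp3, a glycerol channel, differed by 3.04, and Aqp5, known from glands, read 12.28, 11.87 and 12.60 in guinea pigs against 5.14, 4.67, 4.59 and 4.77 in naked mole-rats.

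Proteins of the mitochondrial ribosome were called higher in 21 of 75 tested and lower in 1 (29.3%, median difference 0.52), with Mrpl37 and Mrps35 at 2.65 and 2.40 and Mrpl18 the lower one (-1.72). Peroxins build peroxisomes, which hold catalase and shorten very long fatty acids. Of 16 tested, 0 were called higher and 5 lower (31.25%, against 38.7% of all genes; median difference -0.38). Among the lower ones, Pex2 and Pex10 of the ubiquitin ligase that recycles the import receptor differed by -1.74 and -1.07, and Pex26 and Pex3 by -1.33 and -1.04. By limma 1 peroxin was higher at an unadjusted p under 0.05, and voom called 0 higher. Pex10 was not called without naked mole-rat replicate 2 (-0.94) or guinea pig replicate 3 (-0.98). Pex3 was not called without guinea pig replicate 1 (-0.996) or guinea pig replicate 3 (-0.99). Of 27 potassium channel genes 2 were higher and 10 lower (44.4%; median difference -0.003), with Kcnk1 at -5.12 and Kcnj10 at 2.83.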
